A study of Mus musculus with 4 samples.

Results

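The serpin genes were read in gonadal white adipose tissue (WAT) of male NMRI mice, an outbred stock. Mice on the fat diet (FD; 18% fat) had received it for 8 days, and age matched mice stayed on the normal diet (ND; 3.3% fat) that all animals had eaten before. Tissue was collected at an age of 48 days. The samples titled high fat diet carry the FD content of 18% in their labels and are named FD here. The FD and the ND came from different makers, with sunflower oil as fat source of the FD and mainly grain as that of the ND, so they differ in more than fat content. RNA of 3 mice was pooled for each diet, and each pool was hybridised to 2 Affymetrix mouse gene arrays. Each diet is thus represented by 1 RNA pool, and duplicate gaps given below are absolute differences between the n = 2 arrays of that pool. They cover labelling and hybridisation, not the spread between mice, and no test between the diets was possible.

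The serpin family was taken as all probe sets whose gene symbol starts with Serpin, which were 54 of 21225 probe sets on the array. There was 1 probe set per gene. By clade letter, 19 belong to clade A, 26 to clade B, 2 each to clades F and I, and 1 each to clades C, D, E, G and H. Of 63 protein-coding genes of that name in the RefSeq annotation, 53 were matched by Entrez gene number, and the other member, Serpina4-ps1, is annotated as a transcribed pseudogene. The remaining 10 were not analysed here. The label of adipose tissue was checked against its markers. The 9 measured adipocyte markers, such as Adipoq, Plin1 and Lep, lay between 10.94 and 13.86 as log2 means over both diets, and none was called in either direction (median difference 0.14).

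Most serpins inhibit serine or cysteine proteases by a trap. The protease cuts an exposed loop near the end of the serpin, the loop inserts into the body of the protein, and the protease is left bound and inactive. Clade A holds mainly secreted proteins that the liver releases into plasma, clade B holds mainly proteins kept inside cells, and the other clades include regulators of coagulation, fibrinolysis and complement. Some members inhibit no protease, and carry hormones or assist the folding of collagen. In fat tissue, the serpins vaspin (Serpina12) and PEDF (Serpinf1) are known as adipokines.

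Values are log2 expression values as the authors' RMA processing gave them, and a difference is the mean of the FD arrays minus the mean of the ND arrays. A probe set was called when its difference reached 1.5-fold (0.58 on the log2 scale), when both FD arrays lay on the same side of both ND arrays, and when its mean over the diets was at least 6. Of the 54 serpins, 31 reached that mean and 23 did not. Among the 31, Serpina1b, Serpina1c, Serpina4-ps1 and Serpinb1a were called higher in FD, and Serpina16 and Serpinb5 were called lower. Over all 18211 probe sets at that level, 1.33% were called higher, 4.28% lower and 5.61% in either direction. Both FD arrays lay above both ND arrays in 19 of the 31, against 36.3% of all probe sets, and below them in 4, against 27.2%. The median difference of the 31 was 0.24, beside 0.03 over all probe sets at that level. Duplicate arrays of the serpins differed by a median of 0.05 in FD and of 0.13 in ND.

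**Figure D1:**
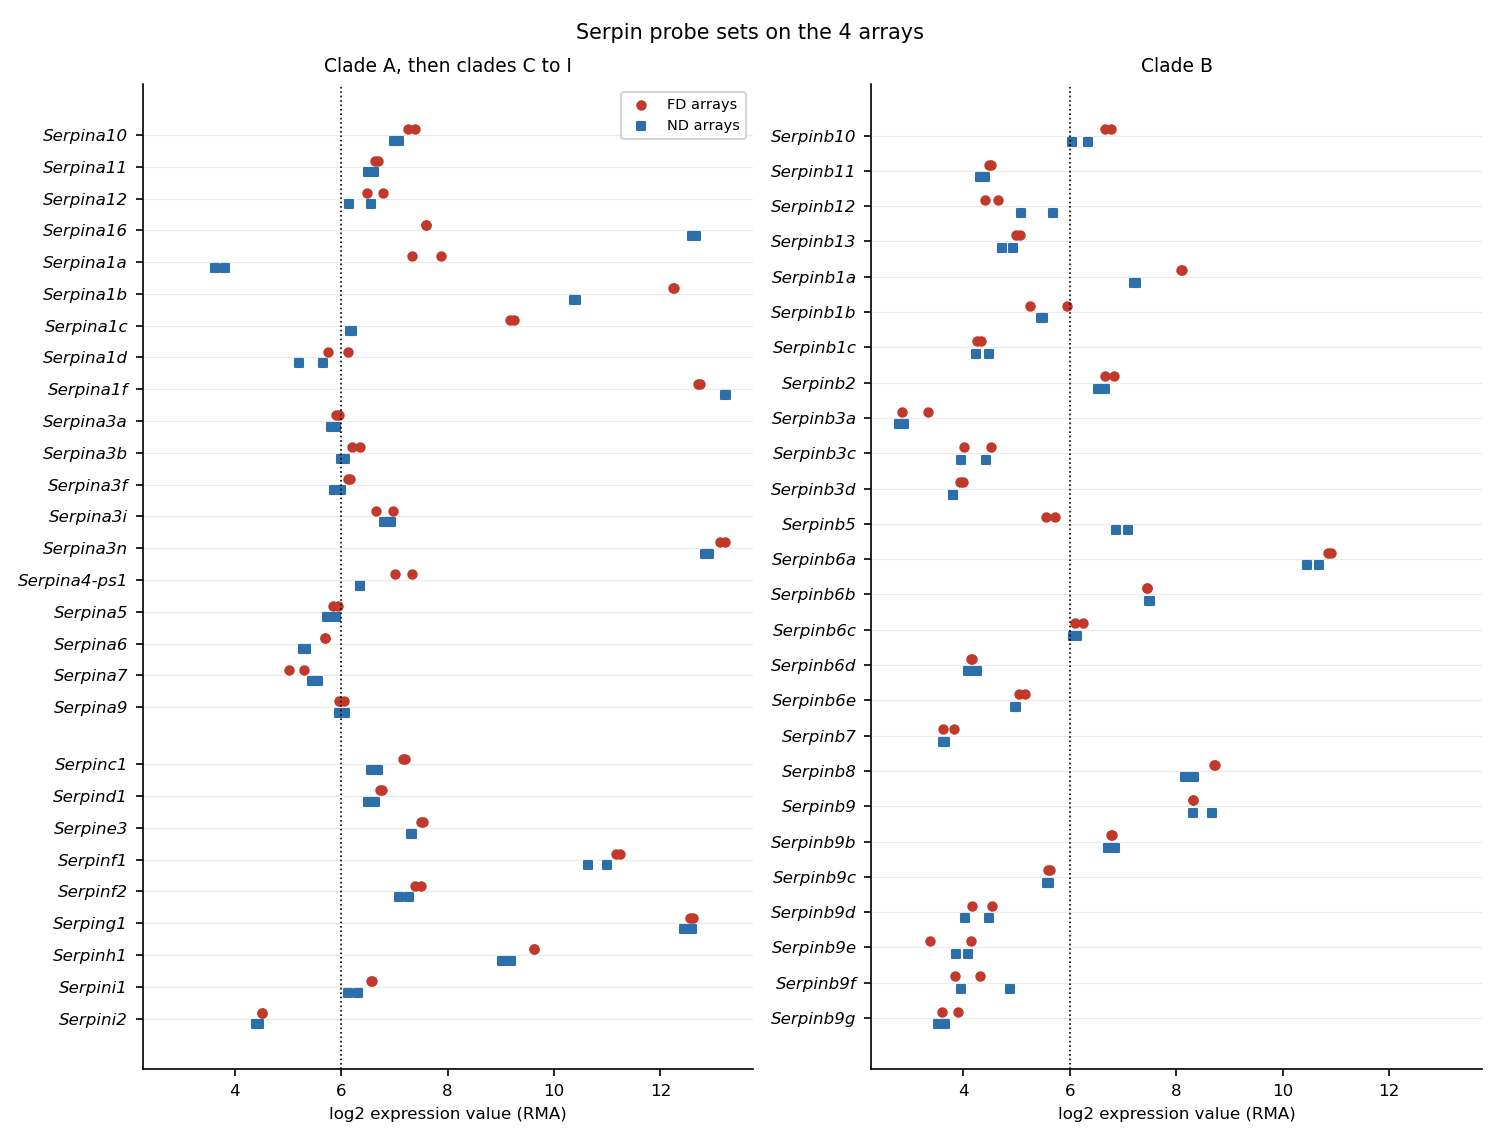
The log2 expression values of all 54 serpin probe sets (rows) are plotted for the 2 FD arrays (red circles) and, just beneath them, the 2 ND arrays (blue squares), with a dotted line at the level of 6. Serpina1a, Serpina1b and Serpina1c have both FD arrays far to the right of the ND arrays, Serpina16 and Serpinb5 have them to the left, and most other rows lie close together.

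Clade A held the differences of greatest size among the serpins, and they ran in both directions. Serpina1a, Serpina1b and Serpina1c encode alpha-1 antitrypsins, secreted inhibitors of neutrophil elastase that mouse liver makes in large amounts from several gene copies. Serpina1b (Entrez gene 20701) was at 12.23 and 12.26 in FD and at 10.37 and 10.41 in ND. Serpina1c (20702) was at 9.18 and 9.25 in FD and at 6.17 and 6.20 in ND. The difference was 1.86 (3.62-fold) for Serpina1b and 3.02 (8.14-fold) for Serpina1c, while duplicates of a diet were no more than 0.07 apart. Serpina1a (20700) was at 7.33 and 7.88 in FD and at 3.63 and 3.81 in ND. Its measured difference of 3.88 exceeded that of Serpina1c, but its mean of 5.66 kept it out of the calls. Since its ND arrays lay under 6, the size of that difference is not determined, and with ND set to 6 it would be 1.61 (3.05-fold). Serpina1d (20703) was at 5.76 and 6.13 in FD and at 5.65 and 5.20 in ND. Its arrays did not overlap, but the gap between the nearest arrays was 0.11, less than its duplicates differed in either diet. In a pool, more cells of a type and more RNA per cell cannot be told apart.

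The starts of these genes show how alike the copies are. The 150 bases before the annotated start are given 5′ to 3′ from the RefSeq promoter table (GRCm38.p6, all on the minus strand) for the 4 alpha-1 antitrypsin genes and for Serpina1f and Serpina16, their neighbours with lower values in FD. Capitals mark the letters GTTAAT, the core of the sequence that hepatocyte nuclear factor 1 (HNF1), a transcription factor of liver, recognises.
Serpina1a: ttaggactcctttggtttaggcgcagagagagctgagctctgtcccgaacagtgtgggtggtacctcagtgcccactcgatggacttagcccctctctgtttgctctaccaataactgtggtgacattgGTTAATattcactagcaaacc
Serpina1b: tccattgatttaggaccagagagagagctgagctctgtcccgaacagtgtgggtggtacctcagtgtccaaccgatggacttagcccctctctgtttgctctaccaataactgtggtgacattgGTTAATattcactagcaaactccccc
Serpina1c: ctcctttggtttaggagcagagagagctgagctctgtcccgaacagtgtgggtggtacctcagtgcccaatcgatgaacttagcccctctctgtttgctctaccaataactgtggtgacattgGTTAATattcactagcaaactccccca
Serpina1d: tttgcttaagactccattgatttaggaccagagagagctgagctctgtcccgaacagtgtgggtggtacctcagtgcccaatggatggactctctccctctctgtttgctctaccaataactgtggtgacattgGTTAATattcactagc
Serpina1f: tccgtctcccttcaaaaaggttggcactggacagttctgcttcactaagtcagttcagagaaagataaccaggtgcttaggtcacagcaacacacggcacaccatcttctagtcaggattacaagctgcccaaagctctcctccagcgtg
Serpina16: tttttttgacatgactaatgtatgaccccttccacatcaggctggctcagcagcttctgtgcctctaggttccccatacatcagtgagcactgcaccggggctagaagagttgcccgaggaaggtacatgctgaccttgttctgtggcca
These stretches lie at chr12:103863620-103863769 for Serpina1a, chr12:103738190-103738339 for Serpina1b, chr12:103904951-103905100 for Serpina1c, chr12:103773634-103773783 for Serpina1d, chr12:103695530-103695679 for Serpina1f and chr12:103676763-103676912 for Serpina16. Over the whole promoter windows of 300 bases, from 250 before to 50 after the start, the 6 pairs among Serpina1a to Serpina1d were 91.7% to 94.9% identical at aligned bases. Serpina1f aligned to them with 56.9% to 63.4% and Serpina16 with 62.0% to 66.5%, so Serpina1f was no closer to the antitrypsin copies than Serpina16 was. The core starts 16 to 27 bases before the annotated start in the 4 copies, with the same bases around it. Searched on both strands, GTTAAT was found in 7.10% of all 32851 promoter windows. Among the 47 serpins with a window, 8 held it, which besides the 4 copies were Serpina7, Serpinb3d, Serpinb8 and Serpini2. Serpina1f and Serpina16 have no match in this window, which says only that these letters are not there. The other motif searched was AGAACA, the core of the sequence that the androgen receptor recognises, a steroid receptor active in the epididymis. Searched likewise on both strands, it was found in 19.0% of all windows and in 21 of the 47 serpins. Serpina16 held it in 2 places and each of the 4 antitrypsin copies in 1, so this motif does not set Serpina16 apart from the copies, and Serpina1f had no match. A match is a run of letters and not a measured binding site. Probe and transcript sequences were not used here, and promoter identity does not show how alike the transcripts are. As close paralogs, the Serpina1 copies may still cross-hybridise, so their single values are uncertain.

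Serpina1f and Serpina16 had lower values in FD. Serpina1f (68348) is known in mouse from the epididymis, the duct beside the testis to which the male gonadal fat pad is attached. It was at 12.71 and 12.75 in FD and at 13.21 and 13.23 in ND. The difference of -0.49 (1.41-fold) was well above its duplicate gaps of 0.04 and 0.01, but did not reach 1.5-fold, so it was not called. Serpina16 (194604) was at 7.59 on both FD arrays and at 12.67 and 12.59 in ND, a difference of -5.04 (32.8-fold). The differences of this pair thus ran the same way but were of very different size.

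Beside both groups, markers of other tissues moved. Of 17 measured markers of proteins that liver secretes, 13 were called higher in FD and none lower (Alb, Ahsg, Ttr, Apoa1, Apoa2, Fgb, Fgg, Hpx, Ambp, Kng1, Itih4, Pzp and Mug1). Over all probe sets at a mean of 6 or more, 1.33% were called higher. The liver list had a median difference of 1.22 and a list mean of 7.89 and 7.89 on the FD arrays, against 6.63 and 6.71 on the ND arrays. Fga went the other way, at 6.81 and 6.97 in FD and at 7.34 and 7.23 in ND. Its difference of -0.40 was not called. Of the 13 called higher, Fgg, Kng1 and Mug1 were under 6 on both ND arrays and reached the mean of 6 only through the FD arrays. The sizes of their differences and of the list median are therefore not determined. Of the liver enzyme markers, 8 were at a mean of 6 or more. Cps1, Hpd and Gys2 were called higher and G6pc lower, and the list mean over the 14 measured was 6.70 and 6.80 in FD, against 6.16 and 6.15 in ND. Of 12 epididymis markers at a mean of 6 or more, 8 were called lower in FD and none higher (Adam7, Rnase9, Rnase12, Defb22, Crisp4, Spink8, Pate2 and Ces5a). Of all probe sets at that level, 4.28% were called lower. The epididymis list mean over 14 was 6.49 and 6.54 in FD, against 9.30 and 9.30 in ND. Not called were Lcn8, Lcn9 and Cst11, with differences of 0.15, 0.16 and 0.13, and Ros1 with -0.31. The epididymis markers Gpx5 and Rnase10 were under 6 in both diets. Adam7, Rnase9, Defb22 and Crisp4 were under 6 in FD and reached the mean of 6 only through the ND arrays. The sizes of their differences and of the epididymis list median of -3.85 are therefore not determined. Spink8 was at 11.75 and 11.61 in FD and at 13.17 and 13.21 in ND. The part of these tissues in the serpin values was not tested. As each diet is 1 pool, diet and the share of other tissue in the pool cannot be told apart.

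Nearly all clade A genes stand side by side on chromosome 12, where 28 Serpina genes and pseudogenes are annotated in GRCm38.p6 and 18 were measured. Serpina7, the gene of thyroxine-binding globulin, lies on chromosome X. Read along the chromosome, the block begins with Serpina10, Serpina6, Serpina16, Serpina1f and Serpina1b, so among the measured genes the pair lower in FD comes just before the antitrypsin copies. From Serpina11 to Serpina3n, at the other end of the block, Serpina4-ps1 was the only measured gene that was called.

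**Figure D2:**
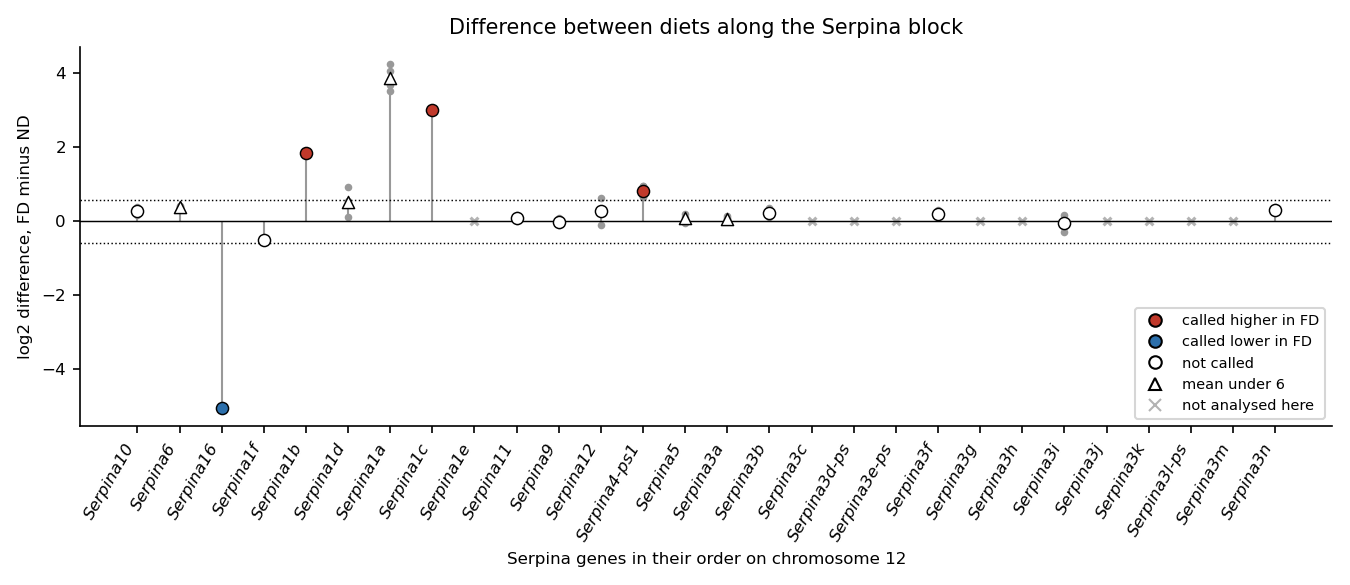
The log2 difference of FD minus ND (y axis) is plotted for the Serpina genes in their order on chromosome 12, with large symbols for the difference of the means, small grey points for the 4 pairs of an FD and an ND array, triangles for genes with a mean under 6 and crosses for genes that were not analysed here. Serpina16 at -5.04 has only Serpina1f between it and Serpina1b at 1.86 among the measured genes, and in the right part of the block the large symbols stay between the dotted lines at 1.5-fold, apart from Serpina4-ps1 at 0.81.

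Serpina4-ps1 (321018), a relative of the kallistatin gene, was at 7.33 and 7.01 in FD and at 6.36 and 6.36 in ND, a difference of 0.81 (1.75-fold). Its nearest arrays were 0.65 apart, while its FD duplicates differed by 0.32. The other plasma serpins of clade A were not called. Serpina10, which with protein Z inhibits activated coagulation factor X, had a difference of 0.28 without overlap of the diets, at 7.25 and 7.39 in FD and at 7.09 and 6.99 in ND. Serpina12, the gene of the adipokine vaspin, was at 6.79 and 6.48 in FD and at 6.56 and 6.15 in ND. Here the diets overlapped and the duplicates differed by up to 0.42, so the difference of 0.28 was within the array spread. The hormone carriers Serpina6, the gene of corticosteroid-binding globulin, and Serpina7 stayed under 6 on all 4 arrays. Serpina6 was at 5.70 and 5.70 in FD and at 5.34 and 5.28 in ND, and Serpina7 was at 5.30 and 5.03 in FD and at 5.57 and 5.44 in ND. Levels this low give no size of a difference. Serpina5, the gene of the protein C inhibitor, lay between 5.74 and 5.95 on the 4 arrays. Serpina9 and Serpina11 had differences of -0.01 and 0.10, and the first was 0.04 after median centring of the arrays.

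The Serpina3 group, the mouse relatives of alpha-1 antichymotrypsin, differed little between the diets. Serpina3n (20716), which in mouse is induced in inflammation, was at 13.22 and 13.12 in FD and at 12.90 and 12.83 in ND, a difference of 0.30 (1.23-fold). Both FD arrays lay above both ND arrays, by 0.22 at the nearest, but the difference did not reach 1.5-fold. Serpina3b, Serpina3f and Serpina3i had differences of 0.24, 0.21 and -0.05, and Serpina3a was under 6. As in the Serpina1 group, the copies are close paralogs whose probes may cross-hybridise. Serpina3c, Serpina3g, Serpina3j, Serpina3k and Serpina3m were not analysed here.

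Clade B had 10 of 26 members at a mean of 6 or more, of which Serpinb1a was called higher and Serpinb5 lower. Serpinb1a (66222, chromosome 13), an inhibitor of the granule proteases of neutrophils, was at 8.11 and 8.09 in FD and at 7.25 and 7.21 in ND. The difference of 0.87 (1.83-fold) was far above the duplicate gaps of 0.02 and 0.05. Its copies Serpinb1b and Serpinb1c stayed under 6 on all arrays. Of the 6 neutrophil markers, none was called higher and Ngp was called lower (-1.62), with a list mean of 6.92 and 6.90 in FD and of 7.05 and 7.12 in ND. The other 5 had positive differences, from 0.02 for Mpo to 0.24 for Elane, and the list median was 0.07. The lower list mean in FD thus came from Ngp. Among all probe sets at a mean of 6 or more, 1.33% were called higher and 4.28% lower. Serpinb5 (20724, chromosome 1), the gene of maspin, a protein of epithelial cells, was at 5.72 and 5.56 in FD and at 6.87 and 7.09 in ND. Its difference of -1.34 (2.54-fold) runs from an FD level under 6, and with FD set to 6 it would be -0.98 (1.97-fold). It reached the mean of 6 only through the ND arrays. Serpinb12 (71869), also known from epithelia, was at 4.65 and 4.41 in FD and at 5.08 and 5.70 in ND. Its arrays did not overlap and its difference of -0.86 passed 1.5-fold, but all 4 arrays were under 6 and the ND duplicates differed by 0.62.

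The other clade B members, some of them known from blood and immune cells, were not called. Serpinb8 (20725) was at 8.72 and 8.73 in FD and at 8.17 and 8.33 in ND, a difference of 0.47 (1.39-fold) without overlap. Serpinb10, also called bomapin and known from cells of the bone marrow, was at 6.78 and 6.66 in FD and at 6.05 and 6.35 in ND, a difference of 0.52. Without ND replicate 2 it would be 0.67 and called. Serpinb6a (20719), an inhibitor of trypsin-like proteases, was at 10.90 and 10.85 in FD and at 10.46 and 10.68 in ND, and its difference of 0.31 was not called. Serpinb9, which protects cytotoxic lymphocytes from their own granzyme B, was at 8.32 and 8.31 in FD and at 8.31 and 8.68 in ND, and the diets overlapped. The cytotoxic lymphocyte markers at a mean of 6 or more, 4 in number, were not called either. Serpinb2, the gene of plasminogen activator inhibitor-2, which macrophages make, had a difference of 0.14 with overlapping diets. Of the 6 macrophage markers, Itgam was called higher (0.64), beside 1.33% of all probe sets at a mean of 6 or more. The macrophage median was 0.40. Serpinb6b, Serpinb6c and Serpinb9b had differences of at most 0.07 in size. Of these, Serpinb6b at -0.04 turned to 0.01 after median centring of the arrays, and Serpinb6c at 0.07 and Serpinb9b at 0.01 turned to -0.001 and -0.07 with cyclic loess. Of the 16 clade B members under a mean of 6, 9 lie on chromosome 13 and 7 on chromosome 1, and their differences other than that of Serpinb12 did not reach 1.5-fold.

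Clades C to I had 8 of 9 members at a mean of 6 or more. None was called, all 8 differences were positive, from 0.07 to 0.55, and the FD arrays lay above the ND arrays without overlap in 7, Serping1 being the exception. Over all probe sets at that level, 56.5% had a positive difference, and both FD arrays lay above both ND arrays in 36.3%. Serpinc1 (11905), the gene of antithrombin, which blocks thrombin and activated factor X in plasma, was at 7.20 and 7.16 in FD and at 6.69 and 6.56 in ND. Its difference of 0.55 (1.47-fold) lay just under the threshold, and it would be called after median centring of the arrays (0.60) or without ND replicate 1 (0.61). Serpind1, heparin cofactor II, was at 6.77 and 6.73 in FD and at 6.63 and 6.50 in ND, a difference of 0.18. The liver secretes both. Serpinf2, the gene of the plasmin inhibitor alpha-2 antiplasmin, was at 7.38 and 7.50 in FD and at 7.08 and 7.28 in ND, and its difference was 0.26. The arrays of these members did not overlap, with gaps between the nearest arrays of 0.47, 0.09 and 0.10. For Serpind1 this gap was smaller than its ND duplicate gap of 0.13. For Serpinf2 it was smaller than the duplicate gaps of both diets (0.11 in FD and 0.20 in ND).

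Serpinh1 (12406) encodes HSP47, a chaperone of the endoplasmic reticulum that binds collagen chains while they fold. It was at 9.63 and 9.63 in FD and at 9.03 and 9.19 in ND, a difference of 0.52 (1.44-fold). It was not called, but without ND replicate 2 the difference would be 0.60 and called. Of the 11 measured collagen clients and folding partners, 9 had a positive difference. Col3a1 (0.73) and Col6a1 (0.61) were called higher, none was called lower, and the median was 0.49. Among all probe sets at that level, 1.33% were called higher and 4.28% lower, which holds beside the marker counts below too. Plod1, a collagen lysyl hydroxylase, had a difference of 0.49, whereas the folding enzymes P4hb and Ppib had differences of -0.05 and -0.23. The fibroblast markers had a median of 0.49, with Lum, Col3a1 and Thy1 called higher of 7, and a list mean of 11.84 and 11.85 in FD, against 11.41 and 11.41 in ND. Col1a1 and Col3a1 are on both the collagen and the fibroblast list, and the fibroblast median is the value of Col1a1. Among the other fibroblast markers, Pdgfra and Dcn had differences of -0.04 and 0.06. The mesothelial markers, 5 of 7 called higher (Msln, Upk3b, Upk1b, Lrrn4 and Gpm6a), had a median of 0.92. Their part in the value of Serpinh1 was not tested.

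Serpinf1 (20317) encodes PEDF, a secreted protein that inhibits no protease and binds the triglyceride lipase encoded by Pnpla2. It was at 11.24 and 11.16 in FD and at 10.65 and 10.999 in ND, a difference of 0.37. Without ND replicate 1 the difference would be 0.20, and without ND replicate 2 it would be 0.55. The ND duplicates differed by 0.35, more than the gap of 0.16 between the nearest arrays of the diets. Pnpla2 was at 13.19 and 13.13 in FD and at 13.08 and 13.26 in ND, and the diets overlapped. Serping1 (12258), the C1 inhibitor of the complement and kinin systems, was at 12.61 and 12.56 in FD and at 12.45 and 12.59 in ND. Its difference of 0.07 was within the array spread. Serpine3 was at 7.53 and 7.49 in FD and at 7.34 and 7.32 in ND, with a difference of 0.18. Serpini1, the gene of neuroserpin, was at 6.58 and 6.56 in FD and at 6.13 and 6.32 in ND, with a difference of 0.34. Serpini2 stayed under 6, at 4.52 and 4.51 in FD and at 4.41 and 4.45 in ND.

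**Figure D3:**
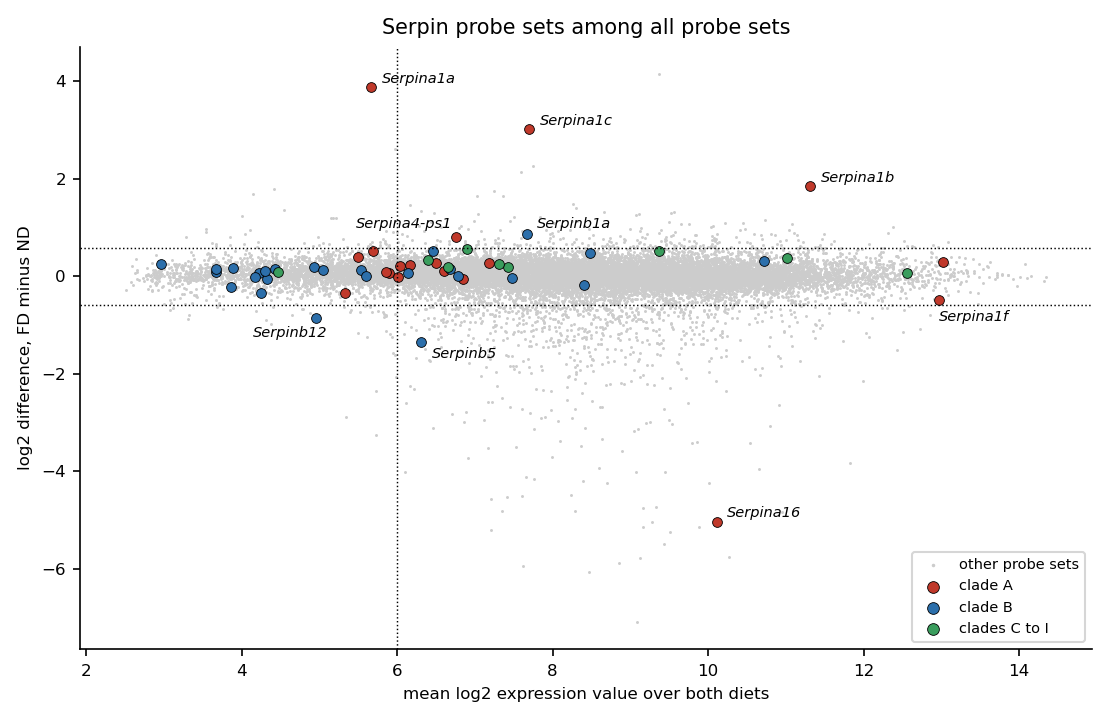
The log2 difference of FD minus ND (y axis) is plotted against the mean log2 expression value over both diets (x axis) for all 21225 probe sets, with serpins coloured by clade and dotted lines at 1.5-fold and at the level of 6. Serpina1a lies left of the level of 6, Serpina1b, Serpina1c and Serpina16 stand far from zero, and clades C to I lie between 0.07 and 0.55.

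Of 24 target proteases, 20 were at a mean of 6 or more. F2, the gene of prothrombin, with 0.68 and Prtn3, that of proteinase 3 of neutrophils, with 0.61 were called higher, none was called lower, and the median was 0.21. Among all probe sets at that level, 1.33% were called higher and 4.28% lower. The tissue-type plasminogen activator gene Plat was at 9.15 and 9.12 in FD and at 8.54 and 8.57 in ND. The urokinase gene Plau was at 10.83 and 10.80 in FD and at 11.15 and 11.31 in ND. These plasminogen activators therefore had differences of opposite sign, 0.58 and -0.42, and neither was called. Plat, at 1.49-fold, lay just under the threshold of 1.5-fold. Elane, the gene of neutrophil elastase and so of a target of the Serpina1 and Serpinb1 proteins, was at 7.72 and 7.76 in FD and at 7.45 and 7.54 in ND, a difference of 0.24. Plg, the gene of plasminogen, had a difference of 0.53, and the complement proteases C1s1 and C1ra, which Serping1 blocks, had differences of 0.46 and 0.32.

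Of 14 receptors and cofactors, Vtn was called higher and Lrp2 lower, and the median was 0.14. Vtn, the gene of vitronectin, an adhesive protein of plasma and matrix, was at 10.26 and 10.35 in FD and at 9.56 and 9.84 in ND, a difference of 0.61. Lrp2, the gene of megalin, an endocytic receptor of epithelia, was at 8.17 and 8.19 in FD and at 10.43 and 10.40 in ND, a difference of -2.24. Its relative Lrp1, which clears complexes of serpins with proteases, had a difference of 0.18 and Vldlr one of 0.45. Hspa5, the gene of a chaperone that also binds vaspin at the cell surface, had a difference of -0.49.

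**Figure D4:**
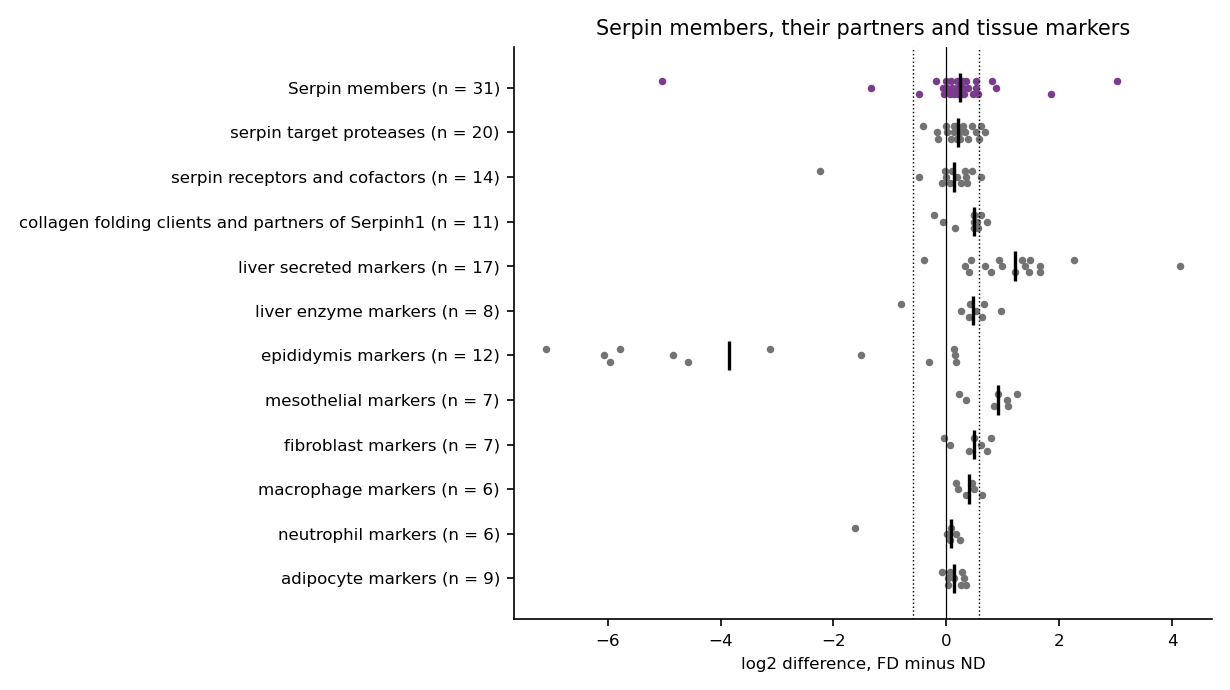
The log2 difference of FD minus ND (x axis) is plotted for each gene at a mean of 6 or more in the serpin family and in lists of partners and tissue markers (rows), with a thick bar at the median of each row, dotted lines at 1.5-fold and n as the number of genes. The serpin median of 0.24 lies near those of the target proteases (0.21), of the receptors and cofactors (0.14) and of the adipocyte markers (0.14). That of the collagen clients and partners of Serpinh1 is 0.49. The liver secreted markers have a median of 1.22 and the epididymis markers one of -3.85. Both of these marker lists hold genes under 6 in 1 diet, so the sizes of their medians are not determined.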

How the data were processed

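The mouse arrays were Affymetrix gene arrays (1.0 ST). The deposited values are log2 expression values that the authors obtained with RMA, which corrects background, normalizes between arrays and summarises each probe set, as the submitters' processing notes name it. Not given in the sources used here are the genome build and the software version. Values were used as deposited. Symbols came from the platform's probe table, and all 54 serpin symbols were those of the RefSeq annotation of GRCm38.p6, used for names and gene order. Array medians lay between 8.11 and 8.19. Arrays have no sequencing depth, and their number limits the precision.

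Because the arrays of a diet are technical duplicates of 1 pool, a rule of size (1.5-fold, no overlap of arrays, mean over the diets at least 6) stood in place of a test. Members, rule and all 15 gene lists were chosen with earlier results of these data known, so counts in the lists are descriptions and no independent support. Array values are given for called serpins, for those past 1.5-fold without overlap at any level, for the 2 with the highest mean in each clade, and for others chosen after their values were seen. From other lists, called genes and up to 3 more were named by rule, and others after their values were seen. Crisp1, Cfd and Fkbp10 were on lists but not analysed here, and some items are not reported here. Endothelial (median 0.32, Robo4 called higher of 6), mast cell (0.10, none of 5 called) and spermatid markers (0.10, Odf1 called lower of 5) were also read. For all probe sets at a mean of 6 or more, the shares called were 1.33% higher and 4.28% lower. Promoter windows were aligned pairwise with Biopython 1.88 with free end gaps. The alternatives were other filters, thresholds and scalings (median centring, and cyclic loess in limma 3.58.1), values under 6 set to 6, and each array left out in turn.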

Additional observations from a re-analysis of the deposited data

How the results depend on the processing

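The counts of 4 serpins higher and 2 lower stayed within 1.5 times of these values with no filter (5 and 3, with Serpina1a and Serpinb12 added), median centring (5 and 2, with Serpinc1 added at 0.60), cyclic loess (4 and 2) and values under 6 set to 6 (4 and 2), and ranged from 4 to 6 and from 2 to 2 with 1 array left out. Without ND replicate 2, Serpinh1 and Serpinb10 were added, which raised the count to 6, and without ND replicate 1 Serpinc1 was added. With the filter at a mean of 7, 1 serpin was lower, since Serpinb5 was not counted, and 3 were higher, without Serpina4-ps1. At 1.3-fold, 8 serpins were called higher, with Serpinc1, Serpinh1, Serpinb8 and Serpinb10 added, and 3 lower, with Serpina1f added at -0.49. At 2-fold, 2 were higher, Serpina1b and Serpina1c, and 2 lower. Over all probe sets, 242 were higher and 780 lower. These counts became 869 and 1333 at 1.3-fold, 41 and 386 at 2-fold, and lay between 260 and 328 and between 753 and 890 with 1 array left out. The serpin median of 0.24 was 0.14 with no filter, 0.29 with the filter at 7, 0.29 with median centring, 0.16 with cyclic loess and 0.19 to 0.25 with 1 array left out. Centring moved the median of all probe sets, taken at any level, to 0.08 and cyclic loess to -0.003, against 0.03 as deposited. No called serpin difference changed sign under either scaling. The cause of these changes was not tested. No paired analysis was possible because the numbers 1 and 2 mark arrays of 1 RNA pool per diet and no test was made.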
